A study of Mus musculus with 24 samples.

Results

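The 7 genes described here encode 5 lysosomal sulfatases (*Arsa*, *Arsb*, *Ids*, *Sgsh* and *Galns*) and the pair of sulfatase modifying factors (*Sumf1* and *Sumf2*), taken by name from the 55487 genes of the deposited gene table of mouse embryonic fibroblasts (MEFs). Of those genes 15401 passed the filter on low counts and were tested, and all 7 members were among them.

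Sulfatases of the lysosome take sulfate groups off glycosaminoglycans and sulfolipids so that these can be broken down. None of them works until a cysteine in the catalytic site has been turned into formylglycine, a step that SUMF1 carries out in the endoplasmic reticulum. TFEB and TFE3 are transcription factors that are held in the cytoplasm when MTORC1 phosphorylates them, and that in the nucleus bind E-box elements of the CLEAR (coordinated lysosomal expression and regulation) type near many lysosomal genes.

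MEFs were wild type (WT; labelled Wild type) or carried the *tfeb tfe3* double knockout (DKO; labelled Tfeb/Tfe3 KO), and each genotype was given the vehicle DMSO (labelled DMSO (control)), torin1 (Torin-1), an inhibitor of the MTOR kinase, or MK-8722 (MK8722), an activator of AMPK. Each of the 6 groups had 4 libraries of poly(A) RNA, from WT cells at passages 7, 8, 9 and 11 and from DKO cells at passages 8, 9, 10 and 11. Every DKO group lacks both transcription factors by its label, and there was 1 WT and 1 DKO line, so that genotype and line cannot be told apart. The labels do not say that replicates were separate isolations, and p-values therefore measure the spread between cultures of different passage.

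Libraries held 24668921 to 33332562 assigned read pairs, and a member's count in a library lay between 463 and 4046. *Tfeb* mRNA was at 14.01 to 25.0 CPM (counts scaled to a common library total) in WT and at 1.34 to 2.65 CPM in DKO libraries, whereas *Tfe3* mRNA, at 77.5 to 122 CPM in WT and 89.5 to 126 CPM in DKO, did not separate the genotypes. Of 12 fibroblast markers 9 were at 1 CPM or more in every library (*Lum* was below it in all), and of 6 leukocyte markers 5 were below 1 CPM in every library. The summed leukocyte list lay between 1.93 and 2.49 CPM in WT DMSO and between 10.8 and 14.6 CPM in WT MK-8722 libraries, most of it *Cd68*, itself a lysosomal gene. The neural or glial list was at 26.1 to 38.5 CPM in WT DMSO, 14.9 to 21.02 CPM in WT torin1 and 12.3 to 20.6 CPM in WT MK-8722 libraries, and the epithelial list was at 2.99 to 4.87 CPM in DKO DMSO and 9.88 to 14.5 CPM in DKO torin1 libraries. The part of these lists in the results was not tested. RNA integrity numbers ran from 7.9 to 9.9, with the lowest in replicate 3 of DKO MK-8722 and 9.7 or more in every other library. In bulk RNA, fewer cells of a kind and less RNA per cell cannot be told apart.

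Promoter windows are shown because *Arsa*, *Sgsh* and *Sumf1*, the genes whose responses differed most often between genotypes, carry the E-box TCACGTG near their start. *Arsb*, *Ids* and *Sumf2* do not. The *Arsb* window is not shown, because an exon of another gene reaches up to its start. Sequences are from RefSeq, build GRCm38.p6, written 5′ to 3′ on the gene's own strand, with the E-box and its flanking T or A in capitals. The *Arsa* window is chr15:89477425-89477524, minus strand. That of *Sgsh* is chr11:119355511-119355556, minus strand, cut short at its 5′ end by the exon of a neighbouring gene. Those of the others are, for *Sumf1*, chr6:108185584-108185683, minus strand, for *Ids*, chrX:70365086-70365185, minus strand, and for *Sumf2*, chr5:129846890-129846989, plus strand.
Arsa: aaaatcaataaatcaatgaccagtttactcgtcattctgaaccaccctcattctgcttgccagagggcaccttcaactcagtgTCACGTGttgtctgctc
Sgsh: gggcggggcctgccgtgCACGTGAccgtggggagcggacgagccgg
Sumf1: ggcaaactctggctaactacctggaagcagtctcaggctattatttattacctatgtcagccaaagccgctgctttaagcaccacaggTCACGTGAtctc
Ids: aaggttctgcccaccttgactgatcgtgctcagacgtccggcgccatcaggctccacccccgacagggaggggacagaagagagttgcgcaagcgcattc
Sumf2: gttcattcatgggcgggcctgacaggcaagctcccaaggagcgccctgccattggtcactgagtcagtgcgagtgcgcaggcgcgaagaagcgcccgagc

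In windows from 250 bases before to 50 bases after the start, searched on both strands, TCACGTG was found in 3 of the 6 members with a RefSeq entry and in 3.77% of 32851 promoters of 27025 genes. Its first base lay 17 bases before the start of *Arsa*, 29 before that of *Sgsh* and 12 before that of *Sumf1*, where the palindromic TCACGTGA matches on both strands. These distances are from the start given by RefSeq, and the gene positions printed with each member are those of GENCODE, by which 26 bases of the *Sgsh* window lie in its own exons and the E-box spans the start. The shorter CACGTG, which every TCACGTG contains, was in the same 3 members and in 7.15% of all promoters, and CATGTG was in 1 member (*Sumf1*) and 14.2% of promoters. A match describes the letters of the window only, and no binding was measured. *Galns* was not among the entries.

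In WT MEFs, torin1 raised *Arsa*, *Sgsh* and *Galns* and lowered *Sumf2*, and MK-8722 raised *Arsa*, *Sgsh*, *Galns* and *Sumf1*. In DKO MEFs torin1 still raised *Arsa* and *Sgsh* and lowered *Sumf2* and *Ids*, and MK-8722 changed no member past the limits used. A gene was called when edgeR's quasi-likelihood test gave a Benjamini-Hochberg adjusted p under 0.05 over all genes tested and the fold change was at least 1.2 in either direction. Torin1 in WT thus gave 3 members higher, against 26.6% of all genes, and 1 lower, against 20.5%. Calls in both directions were thus common among all genes, and 1 gene more or less weighs heavily in a count over 7. The count for MK-8722 in WT was 4 members higher, against 10.3% of genes, and 0 lower, against 5.87%. For torin1 in DKO it was 2 higher and 2 lower, against 23% and 20.2% of genes. With MK-8722 in DKO it was 0 in either direction, against 5.47% and 3.21%. At an adjusted p under 0.05 with no limit on the fold 2 members were higher (*Arsa* and *Galns*), where 1619 of 15401 genes were. They were also higher at an unadjusted p under 0.05, for which the share of all genes was not computed. DESeq2 and limma also called 0 in DKO with MK-8722. Ranges did not overlap DMSO for 5 members with torin1 and 4 with MK-8722 in WT (54.1% and 29.8% of all genes), and for 5 and 2 in DKO (52.8% and 21.1%). The median log2 fold change of the members was 0.19 for torin1 and 0.30 for MK-8722 in WT, where the medians of all genes were 0.05 and -0.01, and -0.09 and 0.01 in DKO.

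**Figure D1:**
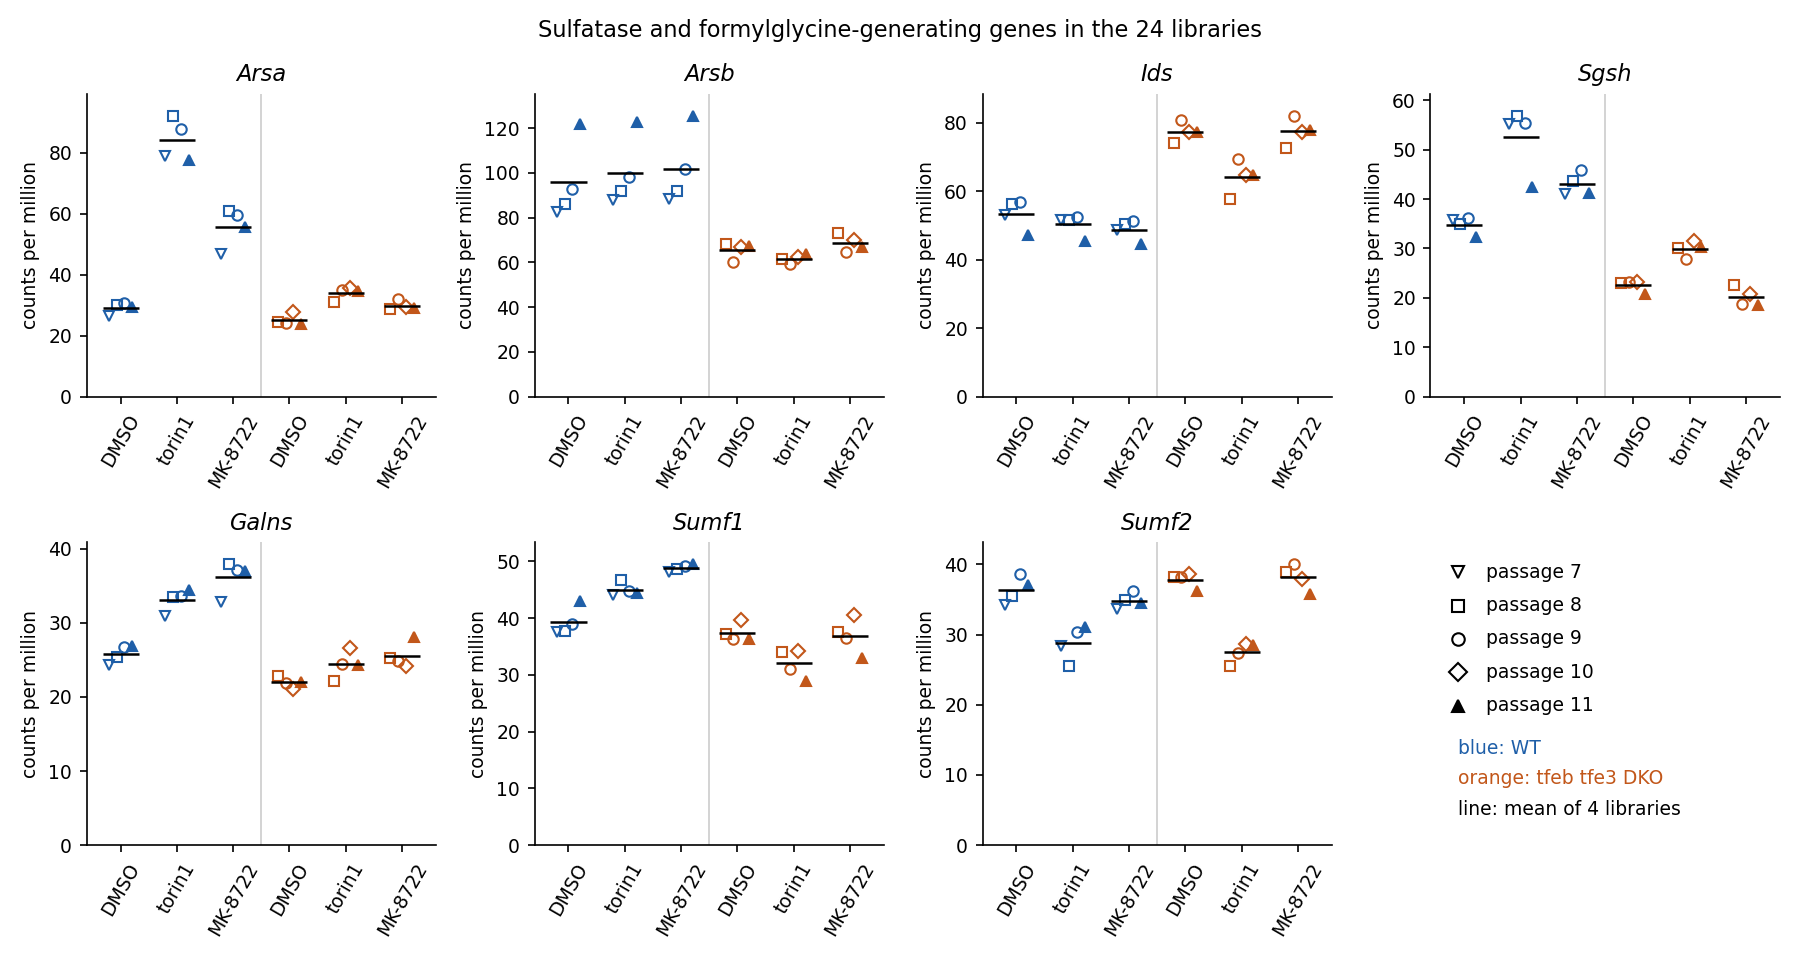
CPM of the 7 genes in each of 24 libraries (y axis, normalized by TMM, from 0) by genotype and treatment (x axis; blue WT, orange DKO; point shape gives the passage, filled points passage 11, lines the group means). *Arsa* is at 77.8 to 92.1 CPM in WT torin1 libraries and at or below 35.5 CPM in every DKO library.

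*Arsa* (ENSMUSG00000022620; GRCm38 chr15:89472476-89477425, minus strand) encodes arylsulfatase A, which desulfates sulfatide, a lipid of myelin, and whose loss causes metachromatic leukodystrophy. Its levels in WT were 26.5, 29.5, 30.1 and 30.6 CPM under DMSO, 77.8, 78.9, 87.9 and 92.1 CPM with torin1, and 46.7, 55.8, 59.5 and 60.8 CPM with MK-8722. None of these ranges overlapped, and torin1 stood highest. The log2 fold change was 1.53 ± 0.076 (SE; 2.89-fold, edgeR adjusted p = 1.43e-13) with torin1 and 0.93 ± 0.075 (1.91-fold, edgeR adjusted p = 2.26e-09) with MK-8722.

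In DKO the same gene was at 23.95, 24.1, 24.5 and 27.8 CPM under DMSO, at 31.1, 34.6, 35.1 and 35.5 CPM with torin1, and at 28.7, 29.1, 29.5 and 32.2 CPM with MK-8722. Both treatments lay above DMSO without overlap, by far less than in WT, and torin1 and MK-8722 overlapped each other. Torin1 gave a log2 fold change of 0.44 ± 0.077 (1.36-fold, edgeR adjusted p = 3.25e-05). MK-8722 gave 0.25 ± 0.077 (1.19-fold, edgeR adjusted p = 0.022), under the fold limit. Without replicate 3 of DKO DMSO it was 0.31 and called, and without replicate 2 or 4 of DKO MK-8722 it was 0.27 and called.

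The response of *Arsa* was smaller in DKO than in WT for both compounds. The difference of the log2 responses, DKO minus WT, was -1.09 ± 0.11 for torin1 (95% interval -1.31 to -0.87, edgeR adjusted p = 2.01e-07) and -0.68 ± 0.11 for MK-8722 (-0.90 to -0.46, edgeR adjusted p = 0.00016). Over 38 alternative settings and omitted libraries these ran from -1.14 to -1.03 and from -0.78 to -0.62, all of them called.

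*Sgsh* (ENSMUSG00000005043; chr11:119343425-119355536, minus strand) encodes heparan N-sulfatase, which takes N-linked sulfate off heparan sulfate and is deficient in Sanfilippo syndrome type A. It was at 32.3, 35.0, 35.7 and 36.1 CPM in WT DMSO, at 42.5, 55.1, 55.4 and 56.8 CPM in WT torin1, and at 41.1, 41.2, 43.7 and 45.9 CPM in WT MK-8722 libraries. Both treatments lay above DMSO without overlap, but the lowest torin1 library, that of passage 11, fell among the MK-8722 libraries. The log2 fold change was 0.59 ± 0.075 with torin1 (1.51-fold, edgeR adjusted p = 4.22e-07) and 0.30 ± 0.075 with MK-8722 (1.24-fold, edgeR adjusted p = 0.0033).

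In DKO, *Sgsh* was at 20.8, 22.9, 23.2 and 23.3 CPM under DMSO, 28.0, 30.2, 30.2 and 31.6 CPM with torin1, and 18.6, 18.8, 20.8 and 22.6 CPM with MK-8722. Torin1 lay above both other treatments, and MK-8722 overlapped DMSO. The response to torin1 was 0.41 ± 0.078 (log2; 1.33-fold, edgeR adjusted p = 8.58e-05) and that to MK-8722 was -0.16 ± 0.079 (edgeR adjusted p = 0.17). For *Sgsh* the 2 compounds therefore gave different pictures: the difference between genotypes was -0.46 ± 0.11 for MK-8722 (95% interval -0.69 to -0.24, edgeR adjusted p = 0.0092), whereas for torin1 it was -0.18 ± 0.11 (-0.40 to 0.04, edgeR adjusted p = 0.30), an interval that includes 0. Whether these 2 differences differ from each other was not tested.

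An offset for the mean transcript length of each gene in each library, weighted by the levels of its transcripts, moved the *Sgsh* values. With it, the change with MK-8722 in DKO was -0.43 and called lower, that in WT was 0.26 and not called (edgeR adjusted p = 0.088), and the difference between genotypes for MK-8722 was -0.68. *Sgsh* counts were shared out over 6 transcripts, of which 5 held over 10% of its TPM (reads per transcript length, scaled to a common total) in at least 1 group, and the share of the 548-base Sgsh-203 was 21.9% ± 2.43 (SD, n = 4) in DKO DMSO and 5.21% ± 10.4 in DKO MK-8722 libraries, and 15.5% ± 11.9 and 15.4% ± 6.06 in the same groups of WT. In single libraries that share ran from 0% to 20.8% in DKO MK-8722 and from 0% to 25.1% in WT DMSO, so a mean describes it poorly. The effect of this apportioning on the counts was not tested further.

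*Galns* (ENSMUSG00000015027; chr8:122578242-122611463, minus strand) encodes the enzyme that removes sulfate from galactose and N-acetylgalactosamine residues of keratan and chondroitin sulfate and that is lost in Morquio syndrome type A. In WT its levels were 24.4, 25.4, 26.7 and 26.9 CPM under DMSO, 30.9, 33.6, 33.6 and 34.4 CPM with torin1, and 32.8, 37.0, 37.1 and 37.9 CPM with MK-8722. Every treated library stood above every DMSO library, and the compounds overlapped. The log2 fold change was 0.36 ± 0.057 with torin1 (1.28-fold, edgeR adjusted p = 1.07e-05) and 0.49 ± 0.057 with MK-8722 (1.40-fold, edgeR adjusted p = 7.90e-07).

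DKO libraries held *Galns* at 21.1, 21.9, 22.03 and 22.8 CPM under DMSO, 22.2, 24.3, 24.5 and 26.6 CPM with torin1, and 24.2, 24.8, 25.3 and 28.0 CPM with MK-8722. Torin1 overlapped DMSO and MK-8722 did not. Neither response reached the fold limit (torin1 0.15, edgeR adjusted p = 0.031; MK-8722 0.22, 1.17-fold, edgeR adjusted p = 0.0094). The difference in response between the genotypes was -0.27 ± 0.082 for MK-8722 (95% interval -0.44 to -0.10), with an edgeR adjusted p of 0.053 that missed the limit, and -0.21 ± 0.082 for torin1 (edgeR adjusted p = 0.098). For MK-8722 it was called under 7 of 38 alternatives, and its adjusted p ran from 0.014 to 0.15. It was called with passage as a block (-0.27, edgeR adjusted p = 0.019) and with passage within genotype as a block (-0.26, edgeR adjusted p = 0.014). The same held with at least 10 counts in every library (-0.26, edgeR adjusted p = 0.047). It was also called without replicate 4 of WT MK-8722 (-0.29), without replicate 2 of DKO MK-8722 (-0.31), and without replicate 3 or 4 of DKO torin1 (-0.27).

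*Arsb* (ENSMUSG00000042082; chr13:93771630-93943016, plus strand) encodes arylsulfatase B, which acts on dermatan and chondroitin sulfate and is deficient in Maroteaux-Lamy syndrome. Neither compound changed it past the limits in either genotype. WT libraries were at 82.5, 85.9, 92.7 and 122 CPM under DMSO, 87.6, 91.7, 97.9 and 123 CPM with torin1, and 88.2, 91.9, 101.6 and 125 CPM with MK-8722. The 3 ranges overlapped almost entirely, and the highest value of each was the passage 11 library. The log2 fold changes in WT were 0.06 for torin1 (95% interval -0.17 to 0.30) and 0.09 for MK-8722 (-0.15 to 0.32), intervals that include a rise of 1.2-fold. In DKO *Arsb* was at 60.1, 67.1, 67.2 and 68.2 CPM under DMSO, 59.2, 61.3, 62.3 and 63.6 CPM with torin1, and 64.5, 66.9, 69.8 and 73.0 CPM with MK-8722. Both treatments overlapped DMSO. The log2 fold changes in DKO were -0.09 and 0.06, and the differences between genotypes were -0.15 for torin1 (95% interval -0.49 to 0.18) and -0.03 for MK-8722 (-0.36 to 0.31).

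*Ids* (ENSMUSG00000035847; chrX:70343069-70365084, minus strand) encodes iduronate sulfatase, which works on heparan and dermatan sulfate and is lost in Hunter syndrome. In WT it was at 47.2, 52.9, 56.2 and 56.7 CPM under DMSO, 45.4, 51.5, 51.7 and 52.5 CPM with torin1, and 44.4, 48.7, 50.4 and 51.4 CPM with MK-8722. These ranges overlapped, and the log2 fold changes of -0.08 with torin1 (95% interval -0.21 to 0.05) and -0.13 with MK-8722 (-0.26 to 0.00) were not called.

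In DKO, *Ids* was at 74.0, 77.1, 77.2 and 80.6 CPM under DMSO, 57.6, 64.5, 64.6 and 69.2 CPM with torin1, and 72.7, 77.3, 77.9 and 81.9 CPM with MK-8722. Torin1 lay below both other treatments without overlap. The log2 fold change was 0.00 with MK-8722 (95% interval -0.13 to 0.13), and that with torin1 was -0.27 ± 0.063 (edgeR adjusted p = 0.00078), close to the fold limit of 1.2. It kept its sign in 38 alternatives but lost its call in 11, with values of -0.20 to -0.26. The libraries whose omission did this were replicate 1 or 3 of WT torin1, replicate 1, 2 or 4 of WT MK-8722, and replicate 4 of DKO DMSO or of DKO torin1. The difference in response between genotypes was -0.19 ± 0.089 for torin1 (edgeR adjusted p = 0.17) and 0.13 ± 0.089 for MK-8722 (edgeR adjusted p = 0.52).

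*Sumf1* (ENSMUSG00000030101; chr6:108107028-108185582, minus strand) encodes the formylglycine-generating enzyme, loss of which causes multiple sulfatase deficiency. In WT it was at 37.5, 37.7, 38.9 and 43.1 CPM under DMSO, 44.0, 44.5, 44.8 and 46.7 CPM with torin1, and 48.2, 48.6, 49.2 and 49.5 CPM with MK-8722. None of the 3 ranges overlapped, and MK-8722 stood highest. The log2 fold change was 0.31 ± 0.057 with MK-8722 (1.24-fold, edgeR adjusted p = 0.00019) and 0.19 ± 0.057 with torin1 (1.14-fold, edgeR adjusted p = 0.0054), the latter under the fold limit. With the transcript length offset the MK-8722 value was 0.26 and not called, and with scaling by library size alone the torin1 value was 0.29 and called.

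DKO cells showed *Sumf1* at 36.3, 36.3, 37.3 and 39.7 CPM under DMSO, 28.9, 31.0, 33.9 and 34.2 CPM with torin1, and 33.1, 36.4, 37.6 and 40.5 CPM with MK-8722. Torin1 lay below DMSO without overlap, the opposite side from WT, and MK-8722 spanned the DMSO range. The torin1 value of -0.22 ± 0.058 (log2; edgeR adjusted p = 0.0021) was under the fold limit (with the transcript length offset it was -0.30 and called lower), and that of MK-8722 was -0.02 (95% interval -0.14 to 0.10). Both responses differed between genotypes, by -0.42 ± 0.081 for torin1 (95% interval -0.59 to -0.25, edgeR adjusted p = 0.0010) and -0.33 ± 0.081 for MK-8722 (-0.50 to -0.16, edgeR adjusted p = 0.012). Both were called in all 38 alternatives, over which they ran from -0.50 to -0.36 and from -0.38 to -0.28.

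*Sumf2* (ENSMUSG00000025538; chr5:129846986-129864050, plus strand) encodes a relative of SUMF1 without its enzymatic activity that can bind to it. WT libraries were at 34.2, 35.5, 37.1 and 38.6 CPM under DMSO, 25.5, 28.3, 30.4 and 31.0 CPM with torin1, and 33.7, 34.5, 34.9 and 36.3 CPM with MK-8722. In DKO the values were 36.2, 38.2, 38.2 and 38.7 CPM under DMSO, 25.6, 27.3, 28.5 and 28.7 CPM with torin1, and 35.7, 37.9, 39.0 and 40.0 CPM with MK-8722. In both genotypes torin1 lay below both other treatments without overlap, and MK-8722 overlapped DMSO. The log2 fold change with torin1 was -0.34 ± 0.054 in WT (edgeR adjusted p = 1.28e-05) and -0.46 ± 0.055 in DKO (edgeR adjusted p = 1.92e-07), and the difference between genotypes was -0.12 (95% interval -0.28 to 0.04). With MK-8722 the values were -0.06 in WT and 0.01 in DKO, and their difference was 0.07 (-0.08 to 0.23). In WT the call was lost when libraries were scaled by their size alone (-0.24) and with the transcript length offset (-0.23).

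**Figure D2:**
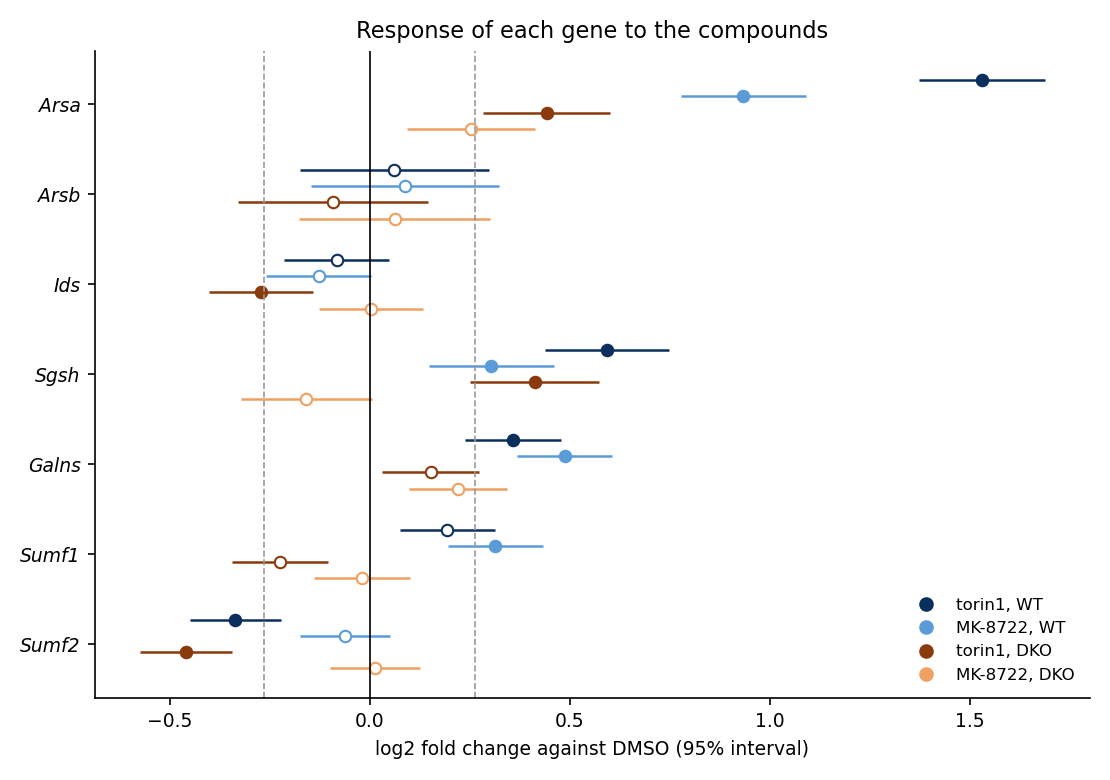
Log2 fold change against DMSO (x axis) for each gene (y axis) under torin1 and MK-8722 in WT (blue) and DKO (orange); bars are 95% intervals, filled points were called, dashed lines mark a 1.2-fold change. *Arsa* in WT lies farthest to the right, at 1.53 with torin1, and no gene is called with MK-8722 in DKO.

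The comparison of the responses asks whether a gene needs TFEB and TFE3 for its response, as far as 1 line of each genotype can tell. The value tested was the log2 response in DKO minus that in WT. A lower value can thus be a smaller rise, a stronger fall or a change of side. For torin1 it was lower for 2 members (*Arsa* and *Sumf1*), against 6.33% of all genes, and higher for 0, against 4.68%. *Sumf1* with torin1 was at 0.19 in WT and at -0.22 in DKO, a change of side. With MK-8722 the difference was lower for 3 members (*Arsa*, *Sgsh* and *Sumf1*), against 4.08%, and higher for 0, against 1.42%. At an unadjusted p under 0.05 edgeR gave 4 lower and 0 higher for each compound. The share of all genes at that limit was not computed, and the shares above are for called genes only. DESeq2 and limma called 2 and 3 lower and 0 higher. The median difference over the members was -0.19 for torin1 and -0.27 for MK-8722, and that of all genes was -0.01 and 0.01. These are the 3 members with TCACGTG in the window shown above, which is a description of 6 genes. Outside the members the lists did not all follow this. TCACGTG was in 2 of 9 glycosaminoglycan-degrading enzymes with an entry, and 6 of the 11 in that list were lower with each compound. It was in 0 of 4 genes for sulfatide handling, of which *Galc* was lower. For mannose 6-phosphate sorting it was in 3 of 4 genes with an entry. Of the 6 in that list, 4 were lower for torin1 and 3 for MK-8722. Of 4 other sulfatases, 3 partners of SUMF1 and 15 genes for the sulfation of glycosaminoglycans with an entry, 0 had it. Of the 7, 4 and 16 tested in these lists, 1, 0 and 1 were lower for torin1 and 1, 0 and 0 for MK-8722. Both comparisons use the same DMSO libraries and are not independent of each other.

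**Figure D3:**
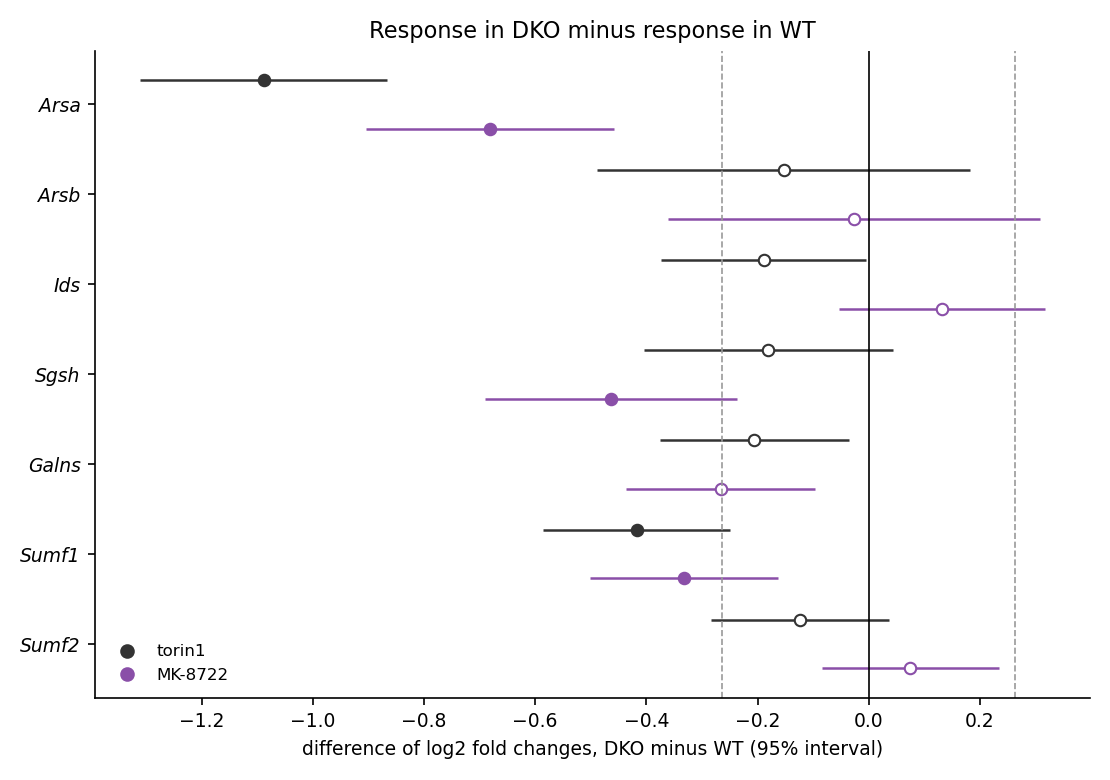
Difference of the log2 responses, DKO minus WT (x axis), for each gene (y axis) with torin1 and MK-8722; bars are 95% intervals and filled points were called. *Arsa* and *Sumf1* are called lower for both compounds and *Sgsh* for MK-8722, where *Galns* is at -0.27 with an adjusted p of 0.053.

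Under DMSO alone the genotypes differed in a different subset of genes. In DKO *Arsb* was lower, at 60.1, 67.1, 67.2 and 68.2 CPM, than in WT, at 82.5 CPM and above, and the ranges did not overlap (log2 difference -0.54 ± 0.11, edgeR adjusted p = 0.00025). *Sgsh* was lower by -0.63 ± 0.077 on the log2 scale (edgeR adjusted p = 2.46e-07), again without overlap. *Ids* was higher by 0.54 ± 0.063 (1.45-fold, edgeR adjusted p = 1.20e-07), with its lowest DKO library at 74.0 CPM and its highest WT library at 56.7 CPM. *Galns*, at -0.23 ± 0.058 (edgeR adjusted p = 0.0013), did not overlap either but missed the fold limit. *Arsa* was at -0.22 ± 0.077 (edgeR adjusted p = 0.017), with overlap, while *Sumf1* and *Sumf2* were at -0.07 and 0.06. That made 1 member higher, against 23.5% of all genes, and 2 lower, against 24.6%. The 4 members whose ranges did not overlap compare with 56.8% of all genes, so a difference between the lines was no rarity. *Arsa* became called without replicate 3 of DKO DMSO (-0.28), and *Galns* without replicate 1, 2 or 4 of WT MK-8722 (-0.26). With passage as a block both were called lower (*Arsa* -0.29, *Galns* -0.27), which made 4 members lower.

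With either compound 5 members were lower in DKO than in WT (*Arsa*, *Arsb*, *Sgsh*, *Galns* and *Sumf1*) and 1 was higher (*Ids*). All genes were called lower in 27.8% and higher in 24% under torin1, and in 25.4% and 23.3% under MK-8722. The ranges of 6 members did not overlap between genotypes under either compound, against 60.3% and 54.7% of genes. *Arsa* differed most under torin1, by -1.31 ± 0.075 (edgeR adjusted p = 7.07e-13), and *Sgsh* most under MK-8722, by -1.09 ± 0.078 (edgeR adjusted p = 3.13e-11). *Arsb* was at -0.70 and -0.57, *Galns* at -0.44 and -0.50, *Sumf1* at -0.49 and -0.41, *Ids* at 0.35 and 0.67, and *Sumf2*, not called, at -0.07 and 0.13 on the log2 scale, torin1 first. Scaling by library size alone, which shifted the median of all genes by -0.13 under torin1, left *Ids* there at 0.22 and not called.

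*Ids* lies on the X chromosome, whose genes as a group were higher in the DKO line. Of 502 tested X-linked genes 55.4% were called higher and 14.3% lower in DKO under DMSO, with a median log2 difference of 0.38 against -0.01 for all genes. *Xist*, the RNA of the inactive X, was at or below 0.115 CPM in every library, and *Ddx3y*, a gene of the Y chromosome, was at 15.2 to 27.8 CPM in WT and 37.8 to 69.5 CPM in DKO. The part of this in the *Ids* difference was not tested.

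Some members held the same place among passages in all 3 treatments of a genotype, a pattern seen in the data and given without a test. The passage 11 library was the highest WT library for *Arsb* in all 3 treatments, at 122 to 125 CPM where the other WT libraries were at 82.5 to 101.6 CPM, and the lowest WT library for *Ids*. Of all tested genes 11.0% were highest and 10.6% lowest in WT passage 11 in all 3 treatments. Passage 9 was highest for *Ids* in WT (1.96% of genes), and passage 7 was lowest for *Arsb*, *Galns* and *Sumf1* (6.59%). In DKO, passage 9 was highest (3.09% of genes) and passage 8 lowest (6.55%) for *Ids*, passage 9 was lowest for *Arsb* (3.91%) and passage 10 highest for *Sumf1* (2.23%). Without the WT passage 11 and DKO passage 8 libraries the log2 difference of *Arsb*, DKO against WT, was -0.43 under DMSO, -0.58 under torin1 and -0.49 under MK-8722, each still called.

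**Figure D4:**
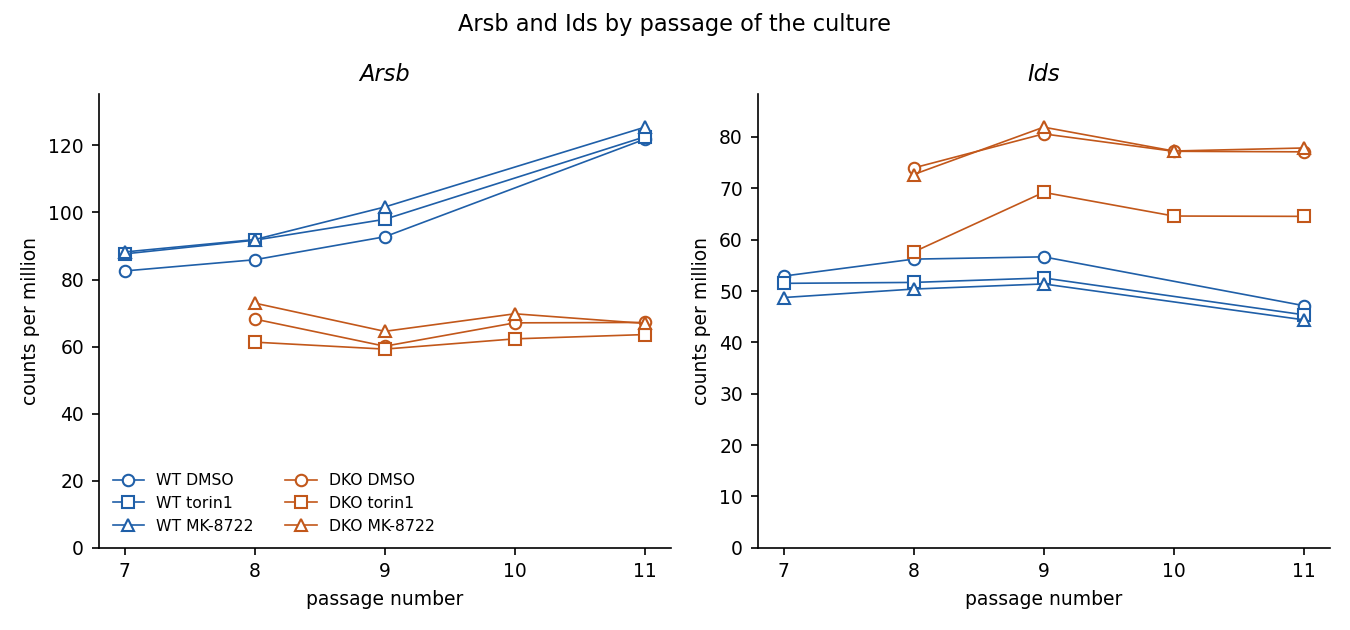
CPM (y axis) of *Arsb* and *Ids* against passage number (x axis) in WT and DKO libraries under the 3 treatments. *Arsb* in WT stands at 122 to 125 CPM at passage 11 and at 82.5 to 101.6 CPM at passages 7 to 9, and *Ids* is higher in every DKO library than in every WT library.

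The compounds were compared with each other within a genotype, at a single dose of each, and the doses are not in the labels. In WT, *Arsa* was 1.51-fold higher with torin1 than with MK-8722 (log2 0.60 ± 0.074, edgeR adjusted p = 3.55e-07) and *Sgsh* 1.22-fold higher (0.29 ± 0.075, edgeR adjusted p = 0.0020), while *Sumf2* was lower by -0.27 ± 0.055 (edgeR adjusted p = 0.00016). That is 2 members higher, against 24.9% of genes, and 1 lower, against 20%. *Galns* (-0.13, 95% interval -0.25 to -0.01), *Sumf1* (-0.12, -0.24 to 0.00), *Arsb* (-0.03, -0.26 to 0.21) and *Ids* (0.05, -0.09 to 0.18) were not called. The *Sgsh* call was lost without replicate 2, 3 or 4 of WT torin1 or replicate 2 or 4 of WT MK-8722 (0.24 to 0.26), and that of *Sumf2* without replicate 4 of WT torin1 (-0.22) or replicate 3 of WT MK-8722 (-0.26).

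In DKO *Sgsh* was 1.49-fold higher with torin1 than with MK-8722 (log2 0.57 ± 0.078, edgeR adjusted p = 1.53e-06), and *Ids* (-0.28 ± 0.063, edgeR adjusted p = 0.00071) and *Sumf2* (-0.47 ± 0.055, edgeR adjusted p = 1.51e-07) were lower, which is 1 member higher against 21.1% of genes and 2 lower against 19.3%. *Arsa*, at 0.19 ± 0.076 (edgeR adjusted p = 0.039), was under the fold limit, as was *Sumf1*, at -0.21 ± 0.058 (edgeR adjusted p = 0.0044). *Arsb*, at -0.15 (95% interval -0.39 to 0.08), and *Galns*, at -0.07 (-0.19 to 0.05), were not called, although no *Arsb* library with torin1 reached the lowest with MK-8722. The *Ids* call was lost without replicate 4 of DKO torin1 (-0.22) or replicate 1 of DKO MK-8722 (-0.25).

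Levels of different genes can be compared only per transcript length, and are given in TPM as group means ± SD (n = 4). In WT DMSO cells *Sumf2* was highest at 49.3 ± 4.45 TPM, followed by *Arsb* (36.8 ± 6.93) and *Sumf1* (32.8 ± 2.56), 3 neighbours whose ranges overlapped in turn. *Ids* (21.1 ± 1.37), *Arsa* (18.7 ± 1.36), *Sgsh* (17.3 ± 2.34) and *Galns* (17.2 ± 0.827) came after a gap and overlapped in turn. With torin1, *Arsa* rose to the top of the order at 58.1 ± 3.75 TPM, apart from *Sumf2* at 45.02 ± 4.93. With MK-8722 in WT *Sumf2* was first and apart (49.5 ± 1.94), *Sumf1*, *Arsb* and *Arsa* overlapped at 40.4, 40.3 and 38.3 TPM, and *Galns*, *Sgsh* and *Ids* followed at 24.6, 21.2 and 19.7 TPM.

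In DKO *Sumf2* was first and apart under every treatment, at 50.6 ± 2.40 TPM under DMSO, 39.7 ± 1.06 TPM under torin1 and 53.2 ± 6.95 TPM under MK-8722. *Arsa* lay between *Arsb* and *Galns* in all 3, at 15.5, 21.4 and 18.4 TPM, and *Sgsh* was last in all 3, at 11.5, 15.5 and 8.73 TPM. *Ids* and *Sumf1* overlapped each other below *Sumf2*, at 31.0 and 31.4 TPM with DMSO.

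Gene totals hide the transcripts they are summed from. In WT DMSO libraries 46.6% ± 0.886 (SD, n = 4) of the TPM of *Arsa* was given to Arsa-201, annotated as an intron-retaining transcript, and 30.0% ± 1.59 to the longest protein-coding transcript, of 3492 bases. With torin1 the shares were 48.3% ± 1.67 and 27.6% ± 2.67, so the rise was shared by both. By TPM *Ids* was 74.9% Ids-201 and 25.1% the 708-base Ids-202, although 96.2% of its reads went to Ids-201. *Arsb* was 98.0% Arsb-201 by TPM, and 43.5% of *Sumf2* TPM was given to a 1656-base transcript annotated as a target of nonsense-mediated decay. Short reads place these shares by estimation. An antisense gene, C230037L18Rik, shares 690 exonic bases with *Arsa* on the other strand, and Card14 shares 955 with *Sgsh*. Their own counts came to 0.72% and 1.96% of those of the members. On the other strand Gm47210 also shares 463 exonic bases with *Arsb*, and Phkg1 shares 630 with *Sumf2* (counts 0.27% and 0.43% of the member's). Gm26527 shares 1948 with *Arsb*, and no count of it was available. Whether counting used strand is not given in the sources used here.

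Genes around the sulfatases were described from lists. Of 11 other glycosaminoglycan-degrading enzymes, 7 rose and 0 fell in WT with torin1 (26.6% and 20.5% of all genes), and 7 rose and 0 fell with MK-8722 (10.3% and 5.87%), with median log2 fold changes of 0.41 and 0.51. For 6 the log2 response in DKO was lower than in WT with torin1 (6.33% of genes), and for 1 it was higher. With MK-8722 it was lower for 6 (4.08% of genes). At an unadjusted p under 0.05, for which the share of all genes was not computed, 1 of them fell in WT with torin1 and 0 with MK-8722. *Hexa*, the alpha subunit of beta-hexosaminidase, differed by -0.90 ± 0.10 with torin1 and -0.93 ± 0.10 with MK-8722. *Idua*, whose enzyme removes the iduronate that iduronate sulfatase has desulfated, differed by -1.06 and -0.68, and *Naglu*, which acts after heparan N-sulfatase, by -0.56 and -0.64.

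For the lists that follow the shares of all genes are the same as above. In WT these are 26.6% higher and 20.5% lower with torin1, and 10.3% and 5.87% with MK-8722. For the log2 response in DKO minus that in WT they are 6.33% lower and 4.68% higher for torin1, and 4.08% and 1.42% for MK-8722. Of 6 genes for mannose 6-phosphate sorting, the route that carries sulfatases to the lysosome, 3 rose and 1 fell with torin1 in WT. With MK-8722 in WT 3 rose. The difference in response was lower for 4 with torin1 and for 3 with MK-8722. Among them *Gnptg*, a subunit of the phosphotransferase, differed by -0.93 and -0.54, *Nagpa*, the uncovering enzyme, by -0.73 and -0.63, and *Igf2r*, a receptor for mannose 6-phosphate, by -0.33 and -0.62. Of 3 tested genes for sulfatide handling 2 rose in WT with each compound. *Galc* cleaves the galactosylceramide that arylsulfatase A leaves behind, and its log2 response was lower in DKO, by -1.19 ± 0.12 and -0.80 ± 0.12.

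Of 8 other sulfatases 7 were tested, and 3 rose and 1 fell with torin1 and 1 rose with MK-8722 in WT. Their log2 response in DKO was higher than in WT for 1 with torin1, and lower for 1 with each compound. Of 4 partners of SUMF1 in the endoplasmic reticulum 2 fell with torin1 in WT, and 0 differed in response between genotypes by edgeR, also at an unadjusted p under 0.05 (median 0.04 for both compounds). Of 16 tested genes for the sulfation of glycosaminoglycans, the opposite process, 2 rose and 3 fell with torin1 in WT, and 1 rose and 2 fell with MK-8722. Their log2 response was lower in DKO for 1 with torin1 and for 0 with MK-8722.

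**Figure D5:**
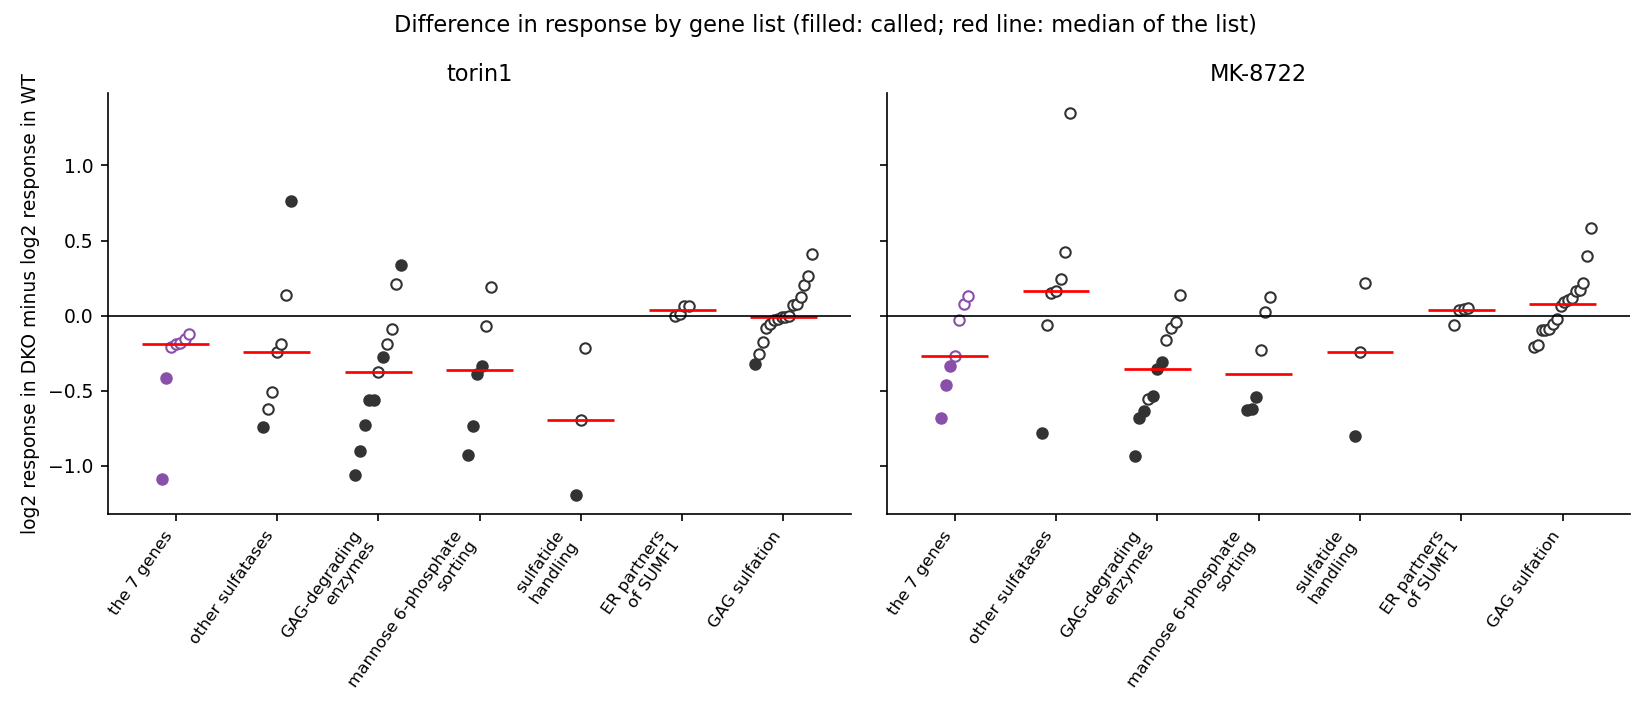
Difference of the log2 responses, DKO minus WT (y axis), for the members and the genes of each list (x axis) with torin1 and MK-8722; each point is 1 gene, filled points were called and red lines are list medians. The glycosaminoglycan-degrading enzymes have medians of -0.38 and -0.35, and the genes for sulfation of -0.01 and 0.08.

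For each member the 3 tested genes with the most similar log2 CPM over 24 libraries were found by Pearson's r, as a description. Libraries fell into the genotypes, so r within the 12 WT and the 12 DKO libraries, which share treatments, is given. *Arsa* was nearest to *Amdhd2* (0.995 in WT, 0.72 in DKO), *Dnase2a* (0.96, 0.81) and *Mfsd1* (0.96, 0.61). *Sgsh* was nearest to *Lrpprc* (0.95, 0.92), *Atad2* (0.93, 0.93) and *Slc26a11* (0.96, 0.88), an anion transporter gene on the plus strand at chr11:119355557-119381079 whose start lies 20 bases from that of *Sgsh*. Among the genes nearest to *Galns* were *Dvl2* (0.93, 0.69) and *Asah1* (0.96, 0.44), which encodes a lysosomal ceramidase. *Sumf1* was nearest to *Nagpa* (0.93, 0.76), *Mpv17* (0.93, 0.79) and *Atp6v1f* (0.96, 0.71), a subunit of the proton pump that acidifies lysosomes.

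*Sumf2* was nearest to *Jdp2* (0.94, 0.95), *Calr* (0.90, 0.95), a chaperone of the endoplasmic reticulum, and *Dolpp1* (0.88, 0.97). Genes near to *Arsb*, *Wls* (0.92, 0.19) and *Colec12* (0.95, -0.40), and those nearest to *Ids*, *Dlk2* (0.70, 0.90), *Fbxo2* (0.63, 0.90) and *Tead3* (0.45, 0.89), had a lower r within at least 1 genotype. Among the members themselves, *Galns* and *Sumf1* had an r of 0.94 and *Arsa* and *Sgsh* of 0.92 in WT.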

How the data were processed

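Bulk mRNA libraries of WT and *tfeb tfe3* DKO MEFs were sequenced by the authors as 52 bp pairs with molecular identifiers and processed with nf-core/rnaseq (STAR, Salmon; GRCm38). The deposited gene table holds estimated counts per gene, summed over transcripts, and the deposited TPM values are scaled by transcript length, per the file headers. Both precede any batch removal. The versions of STAR and Salmon and the strand setting are not given in the sources used here. Here estimated counts were rounded, genes with low counts removed (filterByExpr, minimum 10) and libraries scaled by TMM (factors 0.95 to 1.08). edgeR 4.0.16 fitted 6 group means to 24 libraries (18 residual degrees of freedom, biological coefficient of variation 10.7%), and 11 contrasts were tested with its quasi-likelihood test, adjusted by Benjamini-Hochberg over 15401 genes. The labels give 1 batch. Fold limit (1.2) and threshold (0.05) follow the study. On simulated data for torin1 against DMSO in WT, 157 of 196 changed and 3 unchanged of 15033 genes were called. Gene names come from the files, positions from GENCODE (GRCm38), promoters from RefSeq (GRCm38.p6).

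All members were named in every comparison. Other genes were named by rule: up to 4 of a list called in both response comparisons in the same direction, by size, and the 3 most alike by r. A few genes that the rule would name are not reported here. *Cd68*, C230037L18Rik, Card14, Gm47210, Gm26527 and Phkg1 were named after their values were seen, as were the passages. The members, the lists and the tests were chosen with earlier results of these data known. Alternatives were other scalings and filters, DESeq2 1.42.0, limma 3.58.1, transcript length, passage and replicate blocks, and leaving out libraries. R 4.3.3, Python 3.11.15, pandas 2.3.3 and Matplotlib 3.10.9 were used.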

Additional observations from a re-analysis of the deposited data

Results flagged for a closer look

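Within the groups of 4 libraries, 6 of 42 member and group pairs held a library whose distance from its neighbour took up most of the range (Dixon's test at 95%), of which chance flags about 1 in 20 groups. In the DKO DMSO group these were *Arsa* in replicate 3 (27.8 CPM, next 24.5 CPM), *Arsb* in replicate 4 (60.1 CPM, next 67.1 CPM) and *Sgsh* in replicate 1 (20.8 CPM, next 22.9 CPM). In WT torin1 they were *Ids* (45.4 CPM, next 51.5 CPM) and *Sgsh* (42.5 CPM, next 55.1 CPM), both in replicate 1, the passage 11 library. In WT MK-8722 it was *Galns* in replicate 4 (32.8 CPM, next 37.0 CPM).

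5 responses differed between genotypes by the test of the difference itself (edgeR): *Arsa* by -1.09 with torin1 and -0.68 with MK-8722, *Sumf1* by -0.42 and -0.33, and *Sgsh* by -0.46 with MK-8722, in log2 units, DKO minus WT.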

How the results depend on the processing

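All called differences in response between genotypes (*Arsa*, *Sumf1*, and *Sgsh* with MK-8722) kept their direction and call under all 38 alternatives; calls near the 1.2-fold limit did not. Replicate numbers did not pair the libraries: the correlation of same-numbered deviations ran from -0.41 to 0.66 (median 0.04, 13 of 60 over 0.1), 7 of 24 libraries correlated best with their own number, and with the replicate block the counts of members called were those without it (torin1 in WT 3 higher and 1 lower). Libraries of the same passage and genotype in different groups correlated at 0.02 to 0.66 (median 0.16, 17 of 24 over 0.1). Those of different passages of the same genotype correlated at -0.41 to 0.26 (median -0.04, 7 of 72 over 0.1). Passage thus paired libraries in part, and the main fit holds no term for it. Scaling by library size alone shifted the median of all genes by -0.13 for DKO against WT under torin1, and moved the share of calls that were higher from 56.5% to 68.2% (torin1 in WT), 46.3% to 31.9% (DKO against WT under torin1), 42.5% to 26.5% (torin1 responses) and 55.4% to 66.3% (torin1 against MK-8722 in WT).

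Counts of members that moved by over 1.5 times under a setting, or at all when 1 library was left out, were these. With library size alone: lower with torin1, 0 in WT and 1 in DKO; DKO against WT, 4 lower under DMSO and 0 higher under torin1; torin1 against MK-8722, 0 lower in WT and 1 in DKO. Transcript length offset: 0 lower with torin1 in WT, 2 higher with MK-8722 in WT, 1 lower with MK-8722 in DKO, and 0 (WT) and 1 (DKO) lower with torin1 against MK-8722. Without the fold limit: 2 higher with MK-8722 in DKO, 4 lower and 2 higher in DKO under DMSO and MK-8722, and 2 higher with torin1 against MK-8722 in DKO. At least 10 counts in every library: 1 lower with torin1 in DKO, and 0 (WT) and 1 (DKO) lower with torin1 against MK-8722. No filter: 1 higher with torin1 against MK-8722 in WT. Passage block: 4 lower in DKO under DMSO. Without WT passage 11 and DKO passage 8: 1 lower in DKO with torin1 against DMSO and against MK-8722. Leaving out 1 library gave 1 to 2 lower with torin1 in DKO, 0 to 1 higher with MK-8722 in DKO, 2 to 3 lower in DKO under DMSO, 3 to 4 lower in response to MK-8722, and for torin1 against MK-8722 1 to 2 higher and 0 to 1 lower in WT and 1 to 2 lower in DKO. The cause was not tested where the setting's construction does not give it.

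Values that changed sign were never called in either setting: *Ids* with torin1 in WT (0.0092 by library size, 0.035 with the length offset) and with MK-8722 in DKO (-0.0062 unfiltered, -0.00045 with the offset); *Sumf2* in DKO against WT under DMSO (-0.014 by library size) and torin1 (0.0038 without those passages); *Arsb* with torin1 against MK-8722 in WT (0.0018 with 10 counts, 0.054 by library size). Leaving out 1 library turned the sign of some further values, none of them called: *Arsb* ran from -0.079 to 0.20 with torin1 in WT, from -0.037 to 0.23 with MK-8722 in WT, from -0.28 to 0.00069 and from -0.16 to 0.11 in the responses to torin1 and MK-8722, and from -0.16 to 0.080 with torin1 against MK-8722 in WT, while *Ids* ran from -0.024 to 0.031, *Sumf1* from -0.067 to 0.031 and *Sumf2* from -0.011 to 0.043 with MK-8722 in DKO, and *Ids* from -0.0082 to 0.0695 with torin1 against MK-8722 in WT. Over all genes, dropping the fold limit raised calls with MK-8722 from 1583 to 2432 higher and 904 to 2343 lower in WT and from 843 to 1619 and 495 to 1579 in DKO. It raised calls of a higher log2 response to torin1 in DKO than in WT from 721 to 1146 (472 by library size, 1099 without replicate 3 of WT torin1). A block of passage within genotype raised those of a higher log2 response to MK-8722 from 218 to 486.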
